A study of Mus musculus with 20 samples.

Results

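A set of 9 genes that act after the receptor tyrosine kinase MuSK was followed across the treatments of a myotube experiment. They were chosen by name and role, with no rule on their values: 9 of the 26722 genes in the count table, and all 9 were among the 14605 genes that passed the filter on low counts and were tested. They are the scaffold Rapsn (rapsyn), the adaptors Crk and Crkl, the kinases Abl1, Abl2 and Pak1, the co-chaperone Dnaja3, the adaptor Sorbs2 and the actin regulator Cttn (cortactin). The mouse myoblast line C2C12 was grown to near confluence and differentiated into myotubes in low serum for 5 days. The myotubes were then treated for 16 h, and total RNA depleted of ribosomal RNA was sequenced, with 5 treatments and 4 biological replicates per treatment giving 20 libraries. The control received 7.7 nM of b12, a human IgG4 antibody used as negative control. Bivalent 13-3B5, which is of the same antibody class and activates MuSK, was given at 7.7 nM without agrin. The other 3 groups all received 0.1 nM neural agrin, the natural activator, together with 7.7 nM of an antibody: b12 (the agrin group), 13-3B5xb12 or 11-3F6xb12. The last 2 bind MuSK with a single arm and are labelled as inhibiting it. No motor neuron is present in such a culture, and all libraries come from 1 cell line.

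At the neuromuscular synapse, agrin released by the nerve binds Lrp4, which activates MuSK, and phosphorylated MuSK recruits the adaptor Dok7. Crk and Crkl bind phosphorylated Dok7, the Abl kinases and Pak1 carry the signal towards the actin cytoskeleton, and rapsyn holds acetylcholine receptors together in the postsynaptic membrane. These steps are known mainly as changes in phosphorylation and protein position. The libraries measure only transcript levels, so the question they address for these genes is whether their transcripts differ between activated, inhibited and control myotubes.

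Sorbs2 and Pak1 varied most between libraries of different replicate number, and the sequences before their start sites are shown for that reason. RefSeq start sites (build GRCm38.p6) were found for 7 of the 9 genes, all except Rapsn and Cttn. Each line gives the 250 bases before 1 start site, on the plus strand, 5′ to 3′, and capitals mark E-boxes (CANNTG, which reads the same on both strands), the motif bound by MyoD, myogenin and many other helix-loop-helix factors.

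Pak1 start 1, chr7:97788291-97788540: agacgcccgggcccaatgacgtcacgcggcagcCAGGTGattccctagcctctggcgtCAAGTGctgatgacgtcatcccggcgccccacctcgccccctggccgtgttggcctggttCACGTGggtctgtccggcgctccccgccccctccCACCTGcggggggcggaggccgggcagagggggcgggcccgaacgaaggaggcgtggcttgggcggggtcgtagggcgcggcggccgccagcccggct
Pak1 start 2, chr7:97842689-97842938: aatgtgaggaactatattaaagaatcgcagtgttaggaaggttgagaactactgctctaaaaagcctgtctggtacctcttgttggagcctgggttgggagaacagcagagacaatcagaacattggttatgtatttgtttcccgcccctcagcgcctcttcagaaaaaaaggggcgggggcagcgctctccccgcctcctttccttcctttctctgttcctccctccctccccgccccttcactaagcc
Sorbs2 start 1, chr8:45507538-45507787: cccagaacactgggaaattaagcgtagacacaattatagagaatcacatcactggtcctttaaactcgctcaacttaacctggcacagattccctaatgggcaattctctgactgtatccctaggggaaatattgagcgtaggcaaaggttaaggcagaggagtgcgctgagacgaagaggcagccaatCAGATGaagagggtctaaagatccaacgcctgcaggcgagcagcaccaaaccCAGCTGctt
Sorbs2 start 2, chr8:45627501-45627750: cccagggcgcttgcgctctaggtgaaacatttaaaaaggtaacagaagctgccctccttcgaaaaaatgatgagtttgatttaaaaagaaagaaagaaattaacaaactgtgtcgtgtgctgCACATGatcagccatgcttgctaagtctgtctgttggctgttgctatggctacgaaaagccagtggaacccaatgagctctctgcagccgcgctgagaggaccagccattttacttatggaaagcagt
Sorbs2 start 3, chr8:45661743-45661992: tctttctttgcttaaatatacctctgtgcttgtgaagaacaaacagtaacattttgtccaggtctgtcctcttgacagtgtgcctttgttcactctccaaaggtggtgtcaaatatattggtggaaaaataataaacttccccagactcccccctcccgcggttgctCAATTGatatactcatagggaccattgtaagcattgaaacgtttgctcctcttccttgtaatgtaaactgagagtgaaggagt

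The first Pak1 window held 4 E-boxes and the second held 0. The Sorbs2 windows held 2, 1 and 1. At least 1 E-box was found in 66.2% of 32851 windows of the same length, so having one does not set these genes apart. The subset CAGCTG, contained in the E-box, occurred once in the first Sorbs2 window and in 13.0% of all windows. The N-box CCGGAA, searched on both strands and known from genes expressed at synaptic nuclei, and the MEF2 motif were absent from all 5 windows, and occurred in 12% and 0.508% of all windows. The counts here do not separate the start sites of a gene, so none of these windows can be tied to a measured level.

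Total counts lay between 18424881 and 23343903 per library, and mitochondrial genes held 27.9% to 39.1% of them. Levels are given as CPM, counts normalised to library totals that were scaled by trimmed mean of M-values (TMM). All 10 myotube markers examined, among them Myog, Ckm and Acta1, had counts in every library, with a summed level of 13157 to 17276 CPM. The 6 markers of undifferentiated or dividing myoblasts summed to 113 to 214 CPM. The motor neuron marker Isl1 reached at most 1.23 CPM, and Mnx1 and Chat were not analysed here. Transcripts of liver genes were at 0 in most libraries: Alb in 17 of 20, Apoa1 in 16, with a summed liver level of 9.07 CPM in agrin replicate 3. A pair of libraries stood apart, control replicate 2 and agrin with 13-3B5xb12 replicate 1. Their deviations from the treatment mean rose with transcript length, with a correlation over 11148 genes of 0.383 and 0.390, against -0.212 to 0.191 in the other 18. Control replicate 2 held the highest level of all 20 libraries for Crk, Crkl, Abl1 and Abl2, and the other held the second highest for Crk, Abl2 and Dnaja3.

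All 9 genes were well expressed. Summed counts per library and gene ran from 459 for Crkl to 3642 for Crk, and the spread beyond counting error, as the biological coefficient of variation, was 7.67% for Crk to 15.5% for Sorbs2, beside a median of 15.3% over all genes tested. Per kilobase of annotated exon, Rapsn was the most abundant at 44.4 ± 3.30 CPM per kb (SD, n = 20). Crk followed at 30.6 ± 1.83 and Cttn at 26.6 ± 1.82 CPM per kb, and the mean ± SD ranges of these 3 did not overlap, although on the length of the longest transcript Crk and Cttn stood level at 33.8 and 33.9 CPM per kb. Dnaja3 at 11.3 ± 1.10 and Pak1 at 11.0 ± 1.53 CPM per kb were indistinguishable. Crkl at 5.58 ± 0.781, Abl2 at 5.10 ± 0.574 and Sorbs2 at 4.78 ± 0.738 CPM per kb overlapped. Abl1 had the lowest mean on this length, at 3.90 ± 0.378 CPM per kb, in a range that overlapped that of Sorbs2. The place of Sorbs2 depends on the length used. Its annotation lists 36 transcripts with 27851 exon bases together, while the longest transcript has 6425. On that length Sorbs2 reached 20.7 CPM per kb. The place of Abl1 depends on it too: on the longest transcript Abl1 stood at 7.16 CPM per kb, above Crkl at 5.58 and Abl2 at 5.43.

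**Figure D1:**
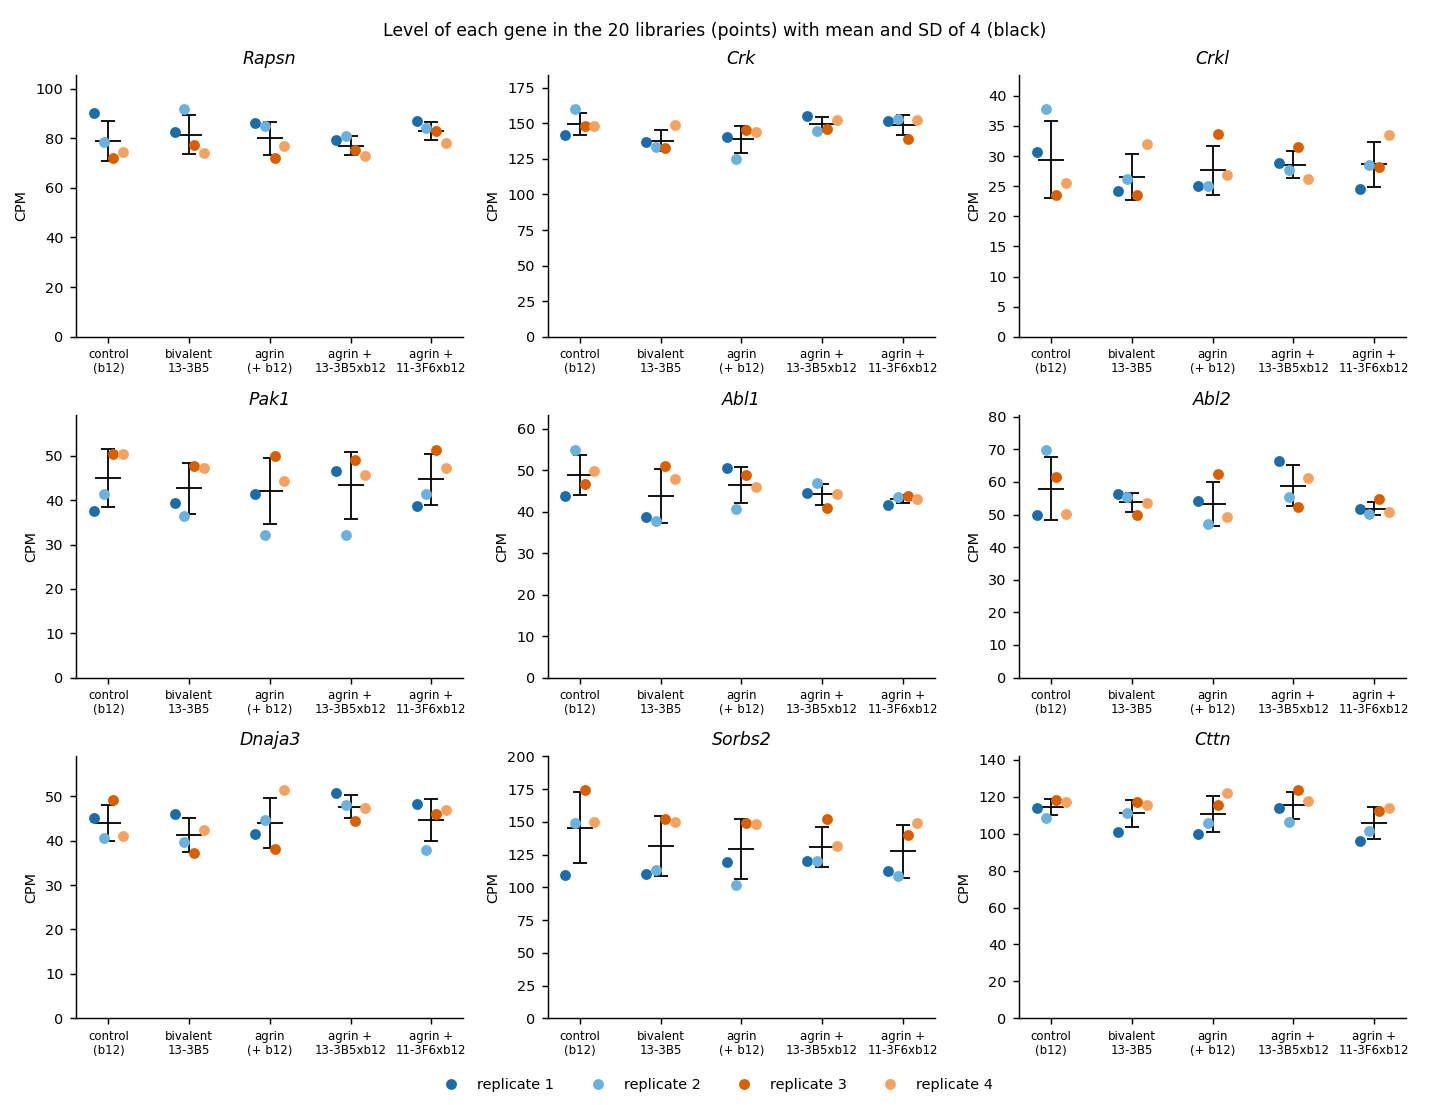
Level of each gene in CPM (y axis, from 0) in the 5 treatments (x axis); points are the 20 libraries, coloured by replicate number, and black marks are the mean and SD of 4. In the 8 comparisons made, the groups overlap for every gene except Abl1 between the control and agrin with 11-3F6xb12. For Sorbs2 and Pak1 the orange points (replicates 3 and 4) lie mostly above the blue ones.

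Rapsn (ENSMUSG00000002104, GRCm38 chromosome 2, 91035620 to 91045729) binds acetylcholine receptors and clusters them. It stood at 90.1, 78.5, 72.1 and 74.2 CPM in control replicates 1 to 4. With agrin it stood at 86.2, 84.7, 72.1 and 77.0 CPM, and with bivalent 13-3B5 at 82.4, 91.9, 77.4 and 73.9 CPM. The groups overlap over nearly their whole range, and replicates 3 and 4 are low in all 3. Agrin with 13-3B5xb12 gave 79.4, 80.9, 75.3 and 72.7 CPM and agrin with 11-3F6xb12 gave 86.9, 84.1, 82.8 and 78.0 CPM. The 11-3F6xb12 library was the higher in 4 of 4 same-numbered pairs, yet the groups overlap and the difference was 0.11 ± 0.08 on the log2 scale (± SE, adjusted p = 0.992). Against the control, Rapsn differed by 0.02 ± 0.08 with agrin and by 0.05 ± 0.08 with bivalent 13-3B5, and the 95% intervals of the fold change were 0.905 to 1.14 and 0.920 to 1.16. Its order by treatment mean ran from agrin with 13-3B5xb12 at 77.1 ± 3.74 CPM to agrin with 11-3F6xb12 at 82.9 ± 3.69 CPM (SD, n = 4 each), with no neighbours separated beyond their spread. The Rapsn model shares 4 exon bases with a gene on the other strand.

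The ratio of Rapsn to Chrna1, the gene of the acetylcholine receptor alpha subunit that rapsyn binds, was compared within each library, where no scaling enters. Its log2 value was -2.91 ± 0.12 in the control, -2.82 ± 0.17 with agrin and -2.92 ± 0.16 with bivalent 13-3B5 (SD, n = 4 each), which is 0.133, 0.141 and 0.132 Rapsn counts per Chrna1 count. Two-sided exact permutation tests gave p = 0.486 for agrin and p = 0.943 for bivalent 13-3B5 against the control, and 0.971 for both after adjustment over the 6 ratio tests. With 4 libraries in each group no p-value below 0.0286 is possible. Chrna1 itself was at 589 ± 17.4 CPM in the control, 565 ± 27.0 CPM with agrin and 615 ± 13.7 CPM with bivalent 13-3B5.

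Crk (ENSMUSG00000017776, chromosome 11, 75679259 to 75706908) and Crkl (ENSMUSG00000006134, chromosome 16, 17451987 to 17487434) encode closely related adaptors with SH2 and SH3 domains, which bridge phosphorylated tyrosines to other proteins. Crk was at 142, 160.3, 148 and 148 CPM in the control and at 140.4, 125, 145 and 144 CPM with agrin. Bivalent 13-3B5 gave 137, 133, 133 and 149 CPM. Crk lay lower with agrin in 4 of 4 same-numbered pairs, but the groups overlap. The difference was -0.11 ± 0.07 for agrin (adjusted p = 1.00) and -0.12 ± 0.07 for bivalent 13-3B5 (adjusted p = 0.999), both log2 against the control. With agrin and 13-3B5xb12 the Crk level was 149.5 ± 4.92 CPM and with agrin and 11-3F6xb12 it was 149 ± 6.88 CPM (SD, n = 4 each). Those means lie at the control mean of 149.6 ± 7.64 CPM and 0.11 ± 0.07 and 0.10 ± 0.07 above agrin alone, neither past the test. Without control replicate 2 and the other library that stood apart, Crk with agrin differed from the control by -0.07 ± 0.07.

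Crkl ranged from 23.5 to 37.9 CPM over all libraries, both ends of that range being control libraries. Its largest difference between treatments was -0.15 ± 0.13 for bivalent 13-3B5 against the control, a sign that turned to 0.00388 with replicate number in the model and without both libraries that stood apart. Crk counts exceeded Crkl counts in every library: the log2 ratio of Crkl to Crk was -2.37 ± 0.17 (SD, n = 20), or 0.193 Crkl counts per Crk count. It stood at -2.37 ± 0.27 in the control, -2.33 ± 0.16 with agrin and -2.39 ± 0.13 with bivalent 13-3B5 (SD, n = 4 each), with exact permutation p = 0.83 and 0.971 against the control.

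Abl1 (ENSMUSG00000026842, chromosome 2, 31688376 to 31804227) and Abl2 (ENSMUSG00000026596, chromosome 1, 156558786 to 156649568) encode tyrosine kinases that bind and phosphorylate cytoskeletal proteins and, in muscle, act with MuSK. Abl1 held the only 1 of 72 pairs of member and comparison in which groups did not overlap, beside 2.16% of all genes in that comparison. Its control libraries stood at 43.8, 55.0, 46.7 and 49.7 CPM and those with agrin and 11-3F6xb12 at 41.7, 43.5, 43.8 and 43.1 CPM, so that the gap between the groups is under 0.1 CPM. The difference was -0.18 ± 0.10 on the log2 scale, a fold change of 0.882 with a 95% interval of 0.769 to 1.01, and Abl1 was lower in 4 of 4 pairs. Its unadjusted p of 0.0695 was the smallest of the 72, and the adjusted p was 1.00. The control mean rests in part on the highest library, control replicate 2: without it the difference was -0.12. Abl1 was at 46.5 ± 4.31 CPM with agrin, 43.8 ± 6.59 CPM with bivalent 13-3B5 and 44.2 ± 2.46 CPM with agrin and 13-3B5xb12 (SD, n = 4 each), and none of these differed beyond the spread. The Abl1 model shares 94 exon bases with an antisense gene.

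Abl2 was at 57.9 ± 9.68 CPM in the control, 53.8 ± 2.93 CPM with bivalent 13-3B5 and 53.3 ± 6.81 CPM with agrin. With agrin and 13-3B5xb12 it was at 66.5, 55.4, 52.3 and 61.3 CPM, and with agrin and 11-3F6xb12 at 51.6, 50.1, 54.7 and 50.8 CPM. These monovalent groups overlap at the low end of the first, whose highest value comes from replicate 1, a library that stood apart. Their difference was -0.18 ± 0.10 log2 (unadjusted p = 0.0819, adjusted p = 0.992). Without both libraries that stood apart it was -0.12 ± 0.09. The log2 ratio of Abl2 to Abl1 was 0.28 ± 0.17 over 20 libraries, 1.22 Abl2 counts per Abl1 count. It was 0.24 ± 0.17 in the control, 0.19 ± 0.12 with agrin and 0.31 ± 0.29 with bivalent 13-3B5 (SD, n = 4 each), with exact permutation p = 0.714 and 0.743.

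Pak1 (ENSMUSG00000030774, chromosome 7, 97788541 to 97912381) encodes a serine/threonine kinase switched on by the GTPases Rac and Cdc42. Its control libraries stood at 37.6, 41.4, 50.4 and 50.5 CPM for replicates 1 to 4. Those with agrin stood at 41.5, 32.2, 50.1 and 44.4 CPM, and those with bivalent 13-3B5 at 39.3, 36.3, 47.8 and 47.2 CPM. Replicates 3 and 4 are above replicates 1 and 2 in all 3 treatments, and the treatments overlap throughout. Agrin with 13-3B5xb12 gave 46.5, 32.2, 49.0 and 45.8 CPM, where replicate 1 is above replicate 4, and agrin with 11-3F6xb12 gave 38.7, 41.4, 51.4 and 47.3 CPM. The Pak1 differences from the control were -0.10 ± 0.14 with agrin and -0.08 ± 0.14 with bivalent 13-3B5, with fold intervals of 0.765 to 1.14 and 0.776 to 1.16.

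Dnaja3 (ENSMUSG00000004069, chromosome 16, 4639989 to 4707695) encodes Tid1, a mitochondrial and cytosolic co-chaperone of the DnaJ family that binds MuSK. Its level was 43.9 ± 3.98 CPM in the control, 43.9 ± 5.58 CPM with agrin and 41.3 ± 3.77 CPM with bivalent 13-3B5. The highest mean was 47.7 ± 2.64 CPM with agrin and 13-3B5xb12 (SD, n = 4 each), which exceeded agrin alone by 0.12 ± 0.10 log2, within the spread. Single libraries ranged from 37.1 CPM with bivalent 13-3B5 to 51.3 CPM with agrin. Dnaja3 shares 160 exon bases with Vasn on the same strand and 153 with Coro7 on the other, so part of its reads may have been assigned otherwise.

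Sorbs2 (ENSMUSG00000031626, chromosome 8, 45507788 to 45827906) encodes ArgBP2, an adaptor with SH3 domains that binds Abl kinases and actin-associated proteins at the Z-disc. In the control it stood at 109, 149, 174 and 149.9 CPM. With agrin it stood at 119, 102, 149 and 148 CPM, and with bivalent 13-3B5 at 110.3, 114, 152 and 150.3 CPM. Control replicate 3 is the highest and agrin replicate 2 the lowest of all 20 libraries, and every treatment spans much of that range. Agrin with 13-3B5xb12 gave 120.4, 120.0, 152 and 131 CPM, and agrin with 11-3F6xb12 gave 112, 108, 139.7 and 149 CPM. The largest difference of all members and comparisons was that of Sorbs2 between agrin with 11-3F6xb12 and the control, -0.19 ± 0.16 log2 (adjusted p = 1.00). With replicate number in the model its standard error fell from 0.16 to 0.08, and the unadjusted p-values were 0.0201 for this comparison and 0.0366 for agrin against the control (-0.17 ± 0.08), while the adjusted p-values stayed at 0.996 and 1.00. Sorbs2 shares 1051 exon bases with Sorbs2os on the other strand.

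Cttn (ENSMUSG00000031078, chromosome 7, minus strand, 144435733 to 144471009) encodes cortactin, which binds branched actin and is phosphorylated by Src and Abl kinases. It was at 114, 108, 118 and 117 CPM in the control and at 99.97, 106, 116 and 122 CPM with agrin. Bivalent 13-3B5 gave 101, 111, 117 and 115 CPM. The groups overlap, with agrin libraries at both ends. Agrin with 13-3B5xb12 gave 114, 106, 123 and 118 CPM and agrin with 11-3F6xb12 gave 95.8, 102, 112 and 114 CPM, lower in 4 of 4 pairs. That difference between the monovalent antibodies was -0.12 ± 0.08 log2 (adjusted p = 0.992), and -0.13 ± 0.06 with replicate number in the model (unadjusted p = 0.0467, adjusted p = 0.807).

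By comparison, edgeR's quasi-likelihood test called 0 of 9 members in agrin against control, where 0% of the 14605 genes were called. Calls were also 0 of 9 in each of the other 7 comparisons, bivalent 13-3B5 against control and against agrin, either monovalent antibody with agrin against agrin and against control, and the monovalent antibodies against each other, again with 0% of all genes called in each. At an unadjusted p under 0.05, 0 of 9 members passed in any comparison. The share of all genes at the unadjusted level was 2.85% for agrin and 2.77% for bivalent 13-3B5 against control, and 2.39% for bivalent 13-3B5 against agrin. For 13-3B5xb12 it was 3.83% against agrin and 2.39% against control, for 11-3F6xb12 3.33% against agrin and 3.25% against control, and 4.22% between the monovalent antibodies. With shares this low, 0 of 9 is near the background. Groups without overlap were as rare among all genes, at 1.72%, 1.88% and 2.38% in the first 3 comparisons named, 2.31% and 1.64% for 13-3B5xb12 against agrin and control, 2.9% for 11-3F6xb12 against agrin and 2.72% between the monovalent antibodies, and 0 of 9 members were without overlap in each of these. A test of any difference among the 5 treatments also gave 0 of 9, with 0% of all genes called and 2.25% at an unadjusted p under 0.05. DESeq2 and limma also called 0 of 9 in each comparison, with 0 and at most 2 of 9 at an unadjusted p under 0.05. The 2 were Sorbs2 and Cttn in limma for 11-3F6xb12 against control, beside 1030 of 14605 genes. Over all genes, limma called 11 for 11-3F6xb12 against agrin, 4 for it against control and 14 between the monovalent antibodies. DESeq2 called 2 genes between the monovalent antibodies.

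The limits on a change are narrow. Over the 72 pairs of member and comparison the standard error ran from 0.07 to 0.16, and all 72 intervals lay within 1.5-fold either way. The outermost bounds were a fold change of 0.696 for Sorbs2 and 1.30 for Pak1. A difference in the members' transcripts larger than these bounds is outside the intervals, each taken alone at 95%. Smaller differences lie within these bounds, and the size that 4 replicates would detect was not tested for the 9 genes. The direction was lopsided against the control: 8 of 9 members had lower means with agrin (median log2 difference -0.09, all genes 0.00, with 49.9% of all genes lower) and 8 of 9 with bivalent 13-3B5 (median -0.11, all genes 0.00, with 49.9% lower), Rapsn being the exception in both. These comparisons share the 4 control libraries, including replicate 2, which is highest for 4 members. Without both libraries that stood apart the medians were -0.04 and -0.08, with 7 and 8 of 9 lower. Against agrin alone, 7 of 9 members were higher with 13-3B5xb12 (median 0.05, all genes -0.01, with 48.5% higher). With 11-3F6xb12 it was 5 of 9 (median 0.03, all genes 0.00, with 49% higher). Against the same control libraries, these groups were also mostly lower. With 13-3B5xb12 6 of 9 members were lower (median -0.03, all genes -0.01, with 52.3% lower). With 11-3F6xb12 7 of 9 were lower (median -0.04, all genes 0.00, with 49.2% lower).

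**Figure D2:**
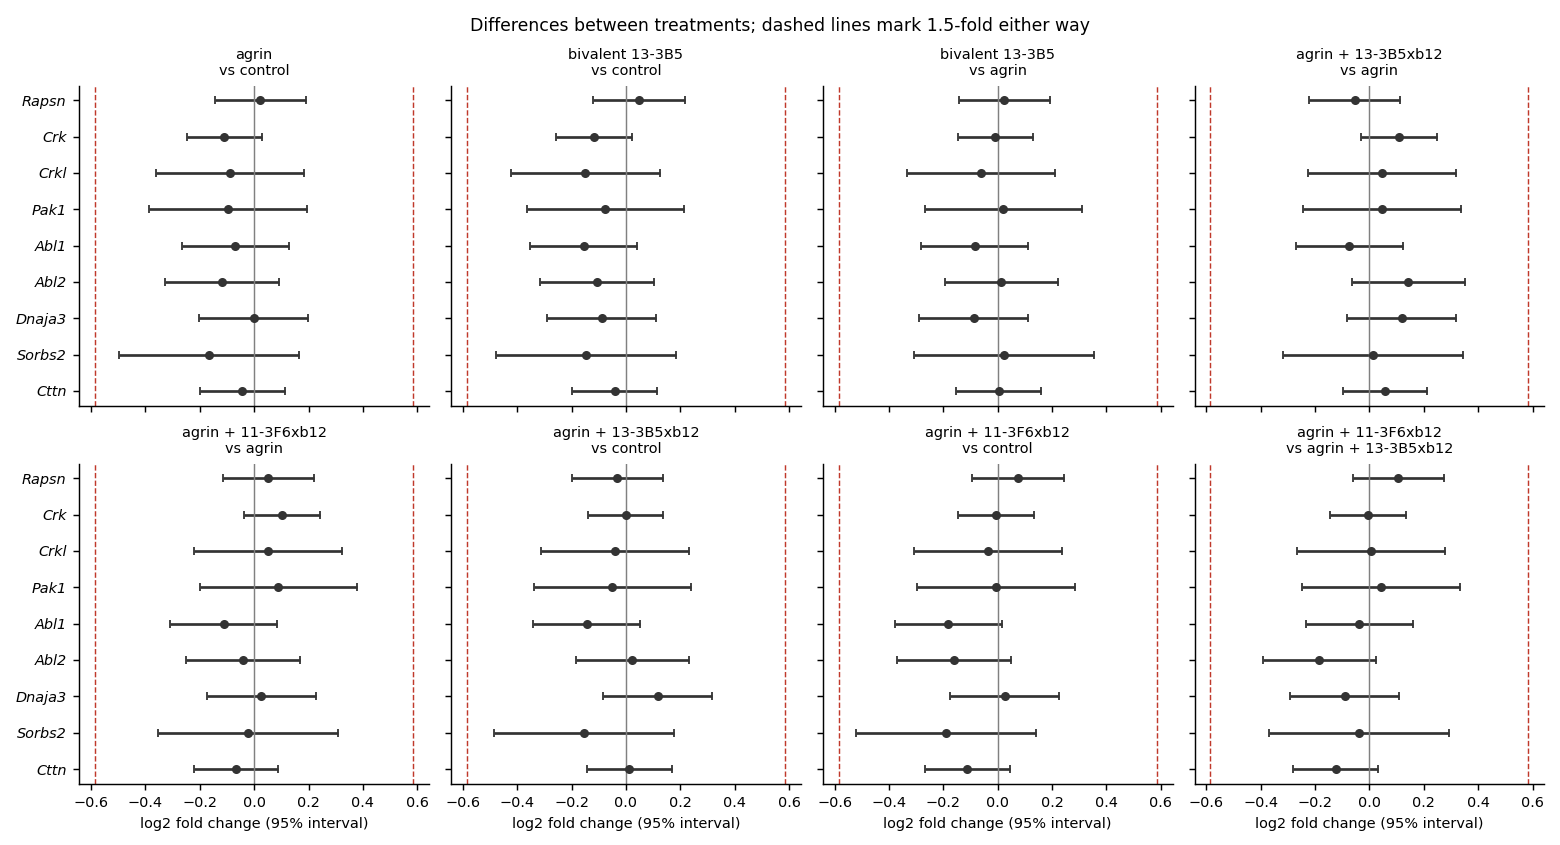
Log2 fold change of each gene (x axis) with its 95% interval in the 8 comparisons between treatments; the grey line is no difference and the dashed lines are 1.5-fold either way. All 72 intervals include 0 and stay inside the dashed lines.

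The replicate number in the sample titles separated some of the members. With treatment in the model, a test of any difference among the 4 numbers called 2 of 9 members, beside 7.19% of all genes, namely Sorbs2 (adjusted p = 4.06e-05) and Pak1 (adjusted p = 0.00079). At an unadjusted p under 0.05 there were 4 of 9, beside 17.3% of all genes, the other 2 being Cttn and Rapsn. The labels do not say what libraries of the same number share. Mean Sorbs2 levels for numbers 1 to 4 were 114 ± 5.14, 119 ± 18.4, 153 ± 12.7 and 146 ± 8.20 CPM (SD, n = 5 each). Mean Pak1 levels were 40.7 ± 3.54, 36.7 ± 4.59, 49.7 ± 1.39 and 47.1 ± 2.29 CPM. Both genes had lower means in numbers 1 and 2 than in 3 and 4, and for Pak1 the 10 libraries of 3 and 4 overlap the others through 1 library, agrin with 13-3B5xb12 replicate 1.

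Cttn had means of 105, 107, 117 and 117 CPM for numbers 1 to 4 (adjusted p = 0.0658), and Rapsn went the other way with 85.0, 84.0, 76.0 and 75.2 CPM (adjusted p = 0.0743). Neither passed the adjusted threshold. Both passed without agrin with 13-3B5xb12 replicate 1, and Rapsn passed without control replicate 2. Without both of these libraries the adjusted p was 0.0146 for Rapsn and 0.0144 for Cttn, and with the likelihood ratio test of DESeq2 it was 0.0249 and 0.0185. Crk, Crkl, Abl1, Abl2 and Dnaja3 did not pass, with adjusted p from 0.678 for Dnaja3 to 0.941 for Abl2. Of the sum of squares of log2 CPM, replicate number held 74.1% for Pak1, 71.2% for Sorbs2, 60.7% for Rapsn and 59.7% for Cttn, beside a median of 18.1% over all genes. Treatment held between 3.89% for Pak1 and 41.3% for Crk, beside a median of 17.3%.

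**Figure D3:**
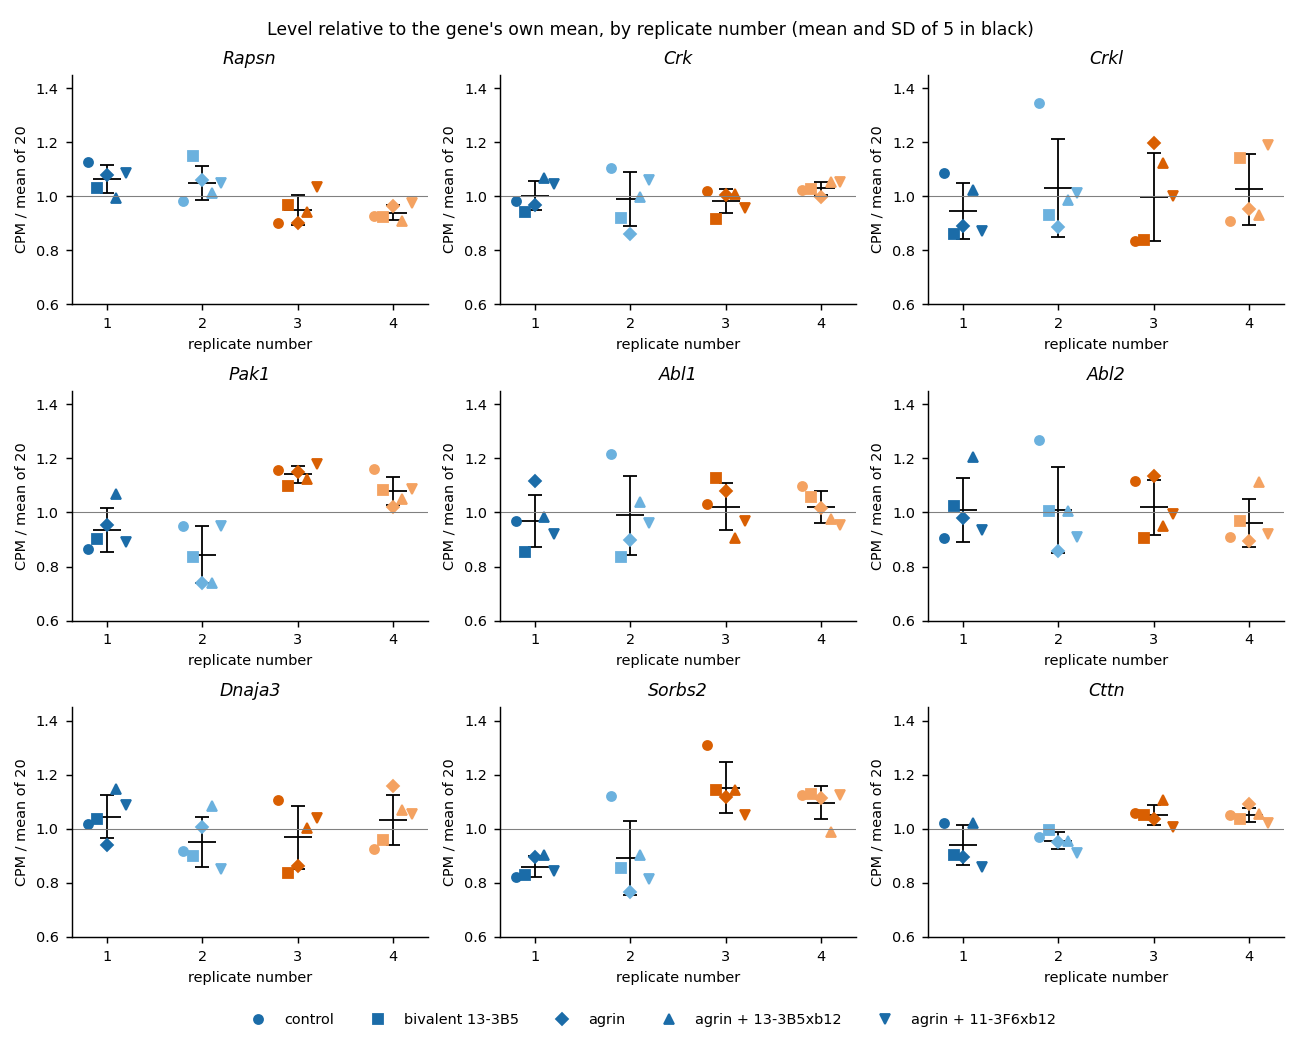
Level of each gene divided by its mean over 20 libraries (y axis, not starting at 0) by replicate number (x axis); symbols are treatments and black marks the mean and SD of 5. Sorbs2, Pak1 and Cttn sit lower at numbers 1 and 2 and Rapsn sits higher there, with mean CPM of 85.0, 84.0, 76.0 and 75.2.

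**Figure D4:**
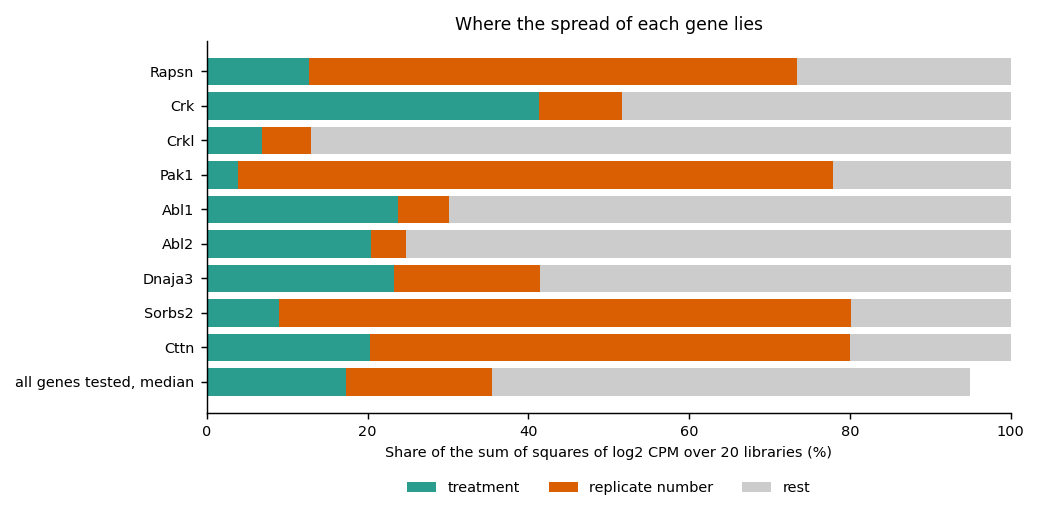
Share of the sum of squares of log2 CPM (x axis, percent) that goes with treatment, with replicate number and with neither, for each gene, and the median of each share over all genes, which need not add to 100. Replicate number takes the widest part of the bar for Rapsn, Pak1, Sorbs2 and Cttn.

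Other measures moved with the replicate number. The mitochondrial share of counts was 36.1 ± 2.05%, 34.2 ± 3.17%, 29.7 ± 1.58% and 30.8 ± 1.53% for numbers 1 to 4 (SD, n = 5 each). Of the 10 myotube markers, 4 passed the same test, beside 7.19% of all genes. Ckm, the muscle creatine kinase, had means of 397, 385, 231 and 244 CPM (adjusted p = 6.09e-07). Tnnt3 had 1674, 1649, 1213 and 1243 CPM and Actc1 had 203, 207, 168 and 165 CPM. Ttn had 5154, 4920, 4784 and 3632 CPM. The other myotube markers did not pass. Of these, Myog with 565, 563, 615 and 579 CPM and Myh8 with 22.9, 25.3, 27.9 and 27.8 CPM had lower means in numbers 1 and 2. For Acta1, Myh3, Mylpf and Des the adjusted p ran from 0.529 to 0.955. The summed myotube markers were at 16278, 16161, 15003 and 13821 CPM, with single libraries from 13157 to 17276. Of 6 myoblast markers, 1 passed, the cyclin Ccnb1, with 8.36, 9.21, 6.77 and 4.64 CPM. Their sum was 159, 173, 149 and 125 CPM. Ckm and Tnnt3 thus had higher means in numbers 1 and 2, unlike Myog and Myh8. In those numbers Rapsn had higher and Sorbs2 and Pak1 lower means. The part of these measures in the levels of the members was not tested. In a culture measured in bulk, a different share of fused cells and a different RNA amount per cell cannot be told apart.

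Over the 20 libraries the log2 CPM of Rapsn and Sorbs2 had a Pearson correlation of -0.81, that of Pak1 and Sorbs2 one of 0.79, and that of Sorbs2 and Cttn one of 0.70. The libraries share their replicate numbers, so these values are a description. After the mean of each replicate number was taken off, they were -0.48, 0.44 and 0.17. Rapsn and Cttn went from -0.64 to -0.09 and Pak1 and Cttn from 0.60 to 0.02. Abl1 and Sorbs2 went the other way, from 0.54 to 0.64, as did Crk and Pak1, from 0.38 to 0.64. Those values cover all treatments, and the libraries that stood apart are among the points.

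**Figure D5:**
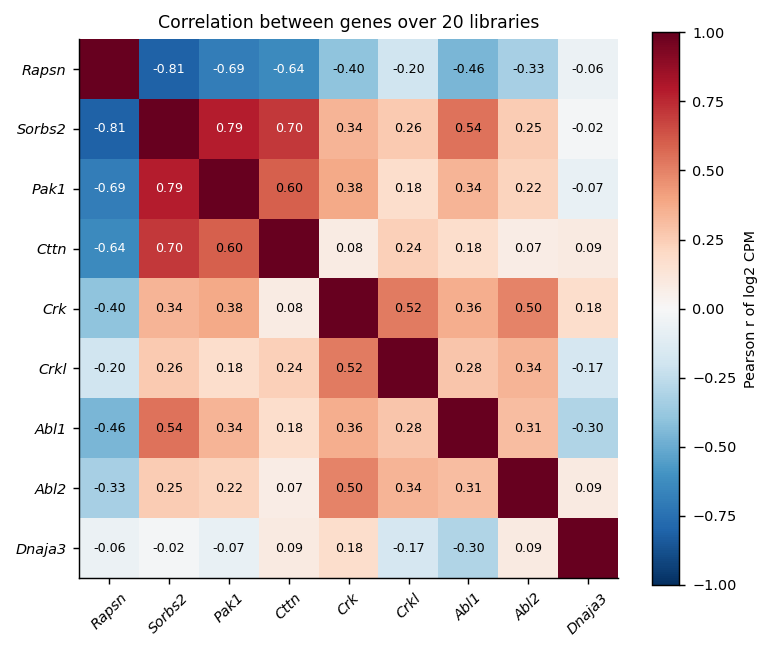
Pearson correlation of log2 CPM between the 9 genes over 20 libraries (colour, from -1 to 1, with each value printed). Rapsn is negatively correlated with Sorbs2 (-0.81), Pak1 and Cttn, which are positively correlated with each other, while Dnaja3 has no strong partner.

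The genes most like each member were ranked by the same correlation over 20 libraries among 11148 other genes. For Sorbs2 they were Myof (0.94), Sh3pxd2b (0.93) and Cmah (0.92). Myof encodes myoferlin, which takes part in myoblast fusion, and Sh3pxd2b an adaptor of podosomes. For Rapsn they were Hspb8 (0.90), Sms (0.88) and Cmbl (0.87), and for Pak1 they were Purb, Csgalnact1 and Fem1b (0.87 each). All 9 of these also passed the test among replicate numbers, beside 7.19% of all genes. Partners were picked over these same libraries, so their result in that test is not independent of the member they resemble. For Cttn they were Lrrc59 (0.90), the elongation factor gene Eef2 (0.90) and Hnrnpab (0.89), of which Eef2 did not pass (adjusted p = 0.111). The other members had lower first correlations, from 0.78 for Abl1 with Creb3l2 to 0.85 for Crk with Tmed10, and none of those partners passed. Abl2 was most like Apc (0.83) and Cdc42bpa (0.83), Crkl most like Wwc2 (0.82) and Dnaja3 most like Lzts2 (0.83).

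Other genes of the pathway were counted in the same way. In the receptor complex and the acetylcholine receptor, 0 of 9 genes were called in each of the 8 comparisons. Chrnb1, the receptor beta subunit, which is phosphorylated after MuSK activation, was at 121 ± 6.01 CPM in the control, 108 ± 5.44 CPM with agrin and 123 ± 9.01 CPM with bivalent 13-3B5 (SD, n = 4 each). Its difference of -0.16 ± 0.07 log2 between agrin and control had an unadjusted p of 0.0347 and an adjusted p of 1.00. In the same test it was higher than with agrin by 0.19 ± 0.07 with bivalent 13-3B5 (unadjusted p = 0.0170). With agrin and 11-3F6xb12 it was higher by 0.18 ± 0.07 (unadjusted p = 0.0224). Neither passed after adjustment. No other gene of the list reached an unadjusted p under 0.05 in any comparison. The list's median was -0.13 for agrin and -0.03 for bivalent 13-3B5 against the control. Among replicate numbers 1 of 9 passed, beside 7.19% of all genes. It was the delta subunit Chrnd, with 139, 142, 114 and 117 CPM (adjusted p = 0.000158), higher where Rapsn was higher.

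Of 36 other kinases, GTPases and adaptors, 0 were called in any comparison, and their median was -0.03 for agrin against control. By the smallest p-values among treatments, Dok1 ranged from 39.9 ± 2.77 CPM with bivalent 13-3B5 to 47.3 ± 3.01 CPM with agrin and 13-3B5xb12. Cdc42, the GTPase that binds Pak1, ranged from 309 ± 24.8 CPM with agrin and 13-3B5xb12 to 352 ± 21.8 CPM with agrin and 11-3F6xb12 (SD, n = 4 each), and both had adjusted p = 1.00. At an unadjusted p under 0.05 in at least 1 comparison were these and, named after their values were seen, Gsk3b, Nck1, Arhgef7 and Pak4. Among replicate numbers 2 of 36 passed (5.56%), beside 7.19% of all genes. They were the kinase Fyn with 114, 110.0, 91.6 and 104 CPM and the adaptor Nck1 with 30.4, 32.8, 25.8 and 27.9 CPM.

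Of 26 actin and microtubule genes, 0 were called between treatments, with a median of -0.02 for agrin against control. Cfl2, the muscle form of the actin-severing protein cofilin, had the smallest p-value among treatments, at 404 ± 32.3 CPM in the control, 397 ± 12.6 CPM with agrin and 458 ± 39.0 CPM with agrin and 11-3F6xb12 (SD, n = 4 each, unadjusted p = 0.0318, adjusted p = 1.00). Plec, which encodes the linker plectin, was at 673 ± 101 CPM in the control and 597 ± 111 CPM with agrin and 11-3F6xb12. Among replicate numbers 5 of 26 passed (19.2%), in both directions, beside 7.19% of all genes. Cfl1 (149, 152, 191 and 187 CPM) and Hsp90ab1 (1560, 1511, 1765 and 1719 CPM) were lower in numbers 1 and 2, like Sorbs2 and Pak1. Phldb2, with 138, 133, 122 and 116 CPM, was higher there, and Macf1 was highest in number 3. Between treatments Actn1, Plec, Dtna, Macf1 and Cfl2 reached an unadjusted p under 0.05 in at least 1 comparison.

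Close relatives of the members were counted to see whether another gene of the family differed. Of 11 relatives of Sorbs2, Cttn, Dnaja3 and Pak1, some of them Pak genes also counted among the kinases, 8 were tested, and Hcls1, Pak5 and Pak6 fell under the filter on low counts. None of the 8 was called between treatments or among replicate numbers, beside 7.19% of all genes among replicate numbers. Pak4 ranged from 9.71 ± 0.758 CPM with agrin and 11-3F6xb12 to 12.8 ± 0.642 CPM with agrin and 13-3B5xb12 (SD, n = 4 each, adjusted p = 1.00 among treatments), and Dnaja1 from 147 ± 6.76 CPM with agrin to 161 ± 10.3 CPM with agrin and 11-3F6xb12.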

How the data were processed

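Total RNA of 20 C2C12 myotube libraries was prepared with the TruSeq Stranded Total RNA kit with Ribo-Zero and read as 150-base pairs, per the labels' protocols. The submitters' processing notes name Trim Galore 0.6.6, cutadapt 2.10, STAR 2.7.6a, HTSeq 0.12.4, DESeq2 1.32.0 and the build GRCm38. Whether strand was used in counting, the annotation release and the treatment of multi-mapping reads are not given in the sources used here. The deposited table holds the authors' raw whole-number counts per gene, not normalized, with 18424881 to 23343903 counts per library. Gene positions and exon lengths are those of GENCODE M21 (GRCm38), matched by Ensembl ID.

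The tests were run in edgeR 4.0.16 under R 4.3.3: filterByExpr (minimum count 10, minimum total 15), TMM scaling, and a robust quasi-likelihood fit of treatment over all 20 libraries, with p-values adjusted by Benjamini-Hochberg over 14605 genes and a threshold of 0.05. All tests are two-sided. A fold change compares the first treatment with the second, its standard error was derived from the size of the log2 change and the F statistic, and log2 CPM used a prior count of 2. Ratios within a library used counts with 0.5 added. On data simulated for agrin against control with 14275 genes, this procedure called 11.9% of genes changed 1.25-fold. It called 41.8% of genes changed 1.5-fold and 66.7% of genes changed 2-fold. The changed genes were drawn from all genes tested, so these rates are not those of the 9 members. The 9 genes, the lists and the tests were chosen with earlier results of these data known. All 9 are described; from each list at most 2 genes were named by the smallest p-value among treatments, and for each of the 9 the 3 most correlated genes. Genes outside this rule were named after their values were seen, and some genes of the lists are not reported here.

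The titles give each treatment replicates 1 to 4. Deviations from the treatment mean of same-numbered libraries had a correlation over 0.1 in all 4 pairs in 4 of 8 comparisons. This was over 11149 genes with mean log2 CPM above 1, and over all 14605 genes it held in 0 of 8. The 4 were bivalent 13-3B5 against control and against agrin, and both monovalent antibodies against agrin. The 4 of 4 pairs named above for Rapsn, Crk, Abl1 and Cttn lie in other comparisons, so they are a description only. As alternatives, replicate number was added as a block and scaling was done with DESeq2 size factors; others were DESeq2 1.42.0, limma 3.58.1 with voom weights, other filters on low counts, fits limited to the pair of groups at hand, removal of 2 genes holding over 1% of a library, removal of both libraries that stood apart, and removal of each replicate in turn. No libraries agreed within sampling noise: the chi-square between replicates was at least 5.17 per gene.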

Additional observations from a re-analysis of the deposited data

Results flagged for a closer look

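Among 45 groups of 4 libraries (9 genes in 5 treatments), the Crk level of agrin with 11-3F6xb12 replicate 3 lay far from the other replicates, at 138.7 CPM against 151.5 to 153.4 CPM, a gap of 0.874 of the group's range. Chance marks about 1 in 20 such groups.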

How the results depend on the processing

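No member was called between treatments under any alternative: the count was 0 of 9 in all 64 fits that left out 1 library and in 80 others, DESeq2 and limma among them, with at most 2 of 9 at an unadjusted p under 0.05. The replicate block (the pairing by number) gave 0 of 9 in each of the 8 comparisons. It changed no call of a member, also in the comparisons where the check did not pair the samples. Over all 14605 genes it called 2 for 11-3F6xb12 against agrin, 3 for it against control and 5 between the monovalent antibodies. The fit without the block called none there. The number of members that differed among replicate numbers was 2 and became 4 with the likelihood ratio test of DESeq2 and 4 without both libraries that stood apart. It ran from 2 to 4 when single libraries were left out, being 4 without agrin with 13-3B5xb12 replicate 1, 3 without control replicate 2 (Rapsn added) and 2 otherwise. Where it was 4, the added genes were Rapsn and Cttn, and the cause was not tested. With the replicate block and without both libraries that stood apart, bivalent 13-3B5 against control reversed for Crkl (0.00388) and Abl2 (0.0184). Other small differences changed sign as well: 85 of 576 fold changes with 1 library left out, and 33 of 720 under the other alternatives. Crkl with agrin against control went from -0.09 ± 0.13 to 0.06 ± 0.13 without both libraries that stood apart. The cause was not tested. In the 60 alternatives for the ratios the exact tests gave no call. The intervals given are the limits that the 4 replicates set on the fold changes of the 9 genes. The smallest change that would be called was not tested for these genes.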
